A study of Mus musculus with 2 samples.

Results

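The genes described here are 10 genes of IL-6, IL-1 and TNF signalling, chosen by symbol from the 32285 genes in each of 2 single-cell RNA libraries of mouse liver. They are the ligands Il6, Il1b and Tnf, the receptors Il6ra, Il6st, Il1r1 and Tnfrsf1a, the IL-1 receptor antagonist Il1rn, the transcription factor Stat3 and its feedback inhibitor Socs3. All 10 were found, each as a single entry. The rule, a match of the symbol, used no measured value.

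The first library came from liver of mice labelled CTRL, called WT here. The second came from liver plus tumor of N-LKO mice, in which albumin-Cre removes Nus1, the gene for NgBR, a subunit of the enzyme that makes dolichol. Albumin-Cre acts in hepatocytes and can also act in cholangiocytes, which arise from the same progenitors, and deletion in the other liver cells was not measured here. All strains were on the C57BL6 background, and both groups had the same diet for 16 weeks after chow, which the titles call HFD and the treatment labels call WD. Hepatocytes and nonparenchymal cells were released with collagenase and mixed at set ratios, with tumor cells added in N-LKO. Each group had 1 library and the number of animals behind it was not given, so replicates cannot bear on any difference and none was tested. Genotype, tumor tissue and library cannot be told apart.

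IL-6 acts on cells that carry both its own receptor chain, encoded by Il6ra, and the shared signalling chain gp130, encoded by Il6st. The soluble receptor can also bring IL-6 to cells with gp130 alone. Signalling through gp130 activates STAT3, which drives acute phase genes in hepatocytes and induces SOCS3, a protein that shuts gp130 signalling off. IL-1β is made mainly by myeloid cells, is matured by inflammasomes and binds the receptor encoded by Il1r1, while the product of Il1rn occupies the same receptor without signalling. TNF, encoded by Tnf, acts on most cells through the receptor encoded by Tnfrsf1a, and IL-1β and TNF both activate NF-κB. In the liver, Kupffer cells are the resident macrophages and a classical source of these cytokines, and hepatocytes are the main target of IL-6 in the acute phase response.

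The start regions of 3 members are shown: Socs3 as a gene known to respond to STAT3, Il6 as one known to respond to NF-κB, and Il1r1 because it had the widest difference between the libraries over all barcodes. They are RefSeq windows of build GRCm38.p6 from 250 bases before to 50 bases after an annotated start, 5′ to 3′ on the coding strand. All 10 members matched, with 13 windows. In capitals are the STAT motif TTCNNNGAA in the Socs3 window (chr11:117969317-117969616, minus strand), the NF-κB motif in the Il6 window (chr5:30012864-30013163, plus strand) and the NF-κB motif, on the opposite strand, in the window of the second Il1r1 start (chr1:40266336-40266635, plus strand).
Socs3: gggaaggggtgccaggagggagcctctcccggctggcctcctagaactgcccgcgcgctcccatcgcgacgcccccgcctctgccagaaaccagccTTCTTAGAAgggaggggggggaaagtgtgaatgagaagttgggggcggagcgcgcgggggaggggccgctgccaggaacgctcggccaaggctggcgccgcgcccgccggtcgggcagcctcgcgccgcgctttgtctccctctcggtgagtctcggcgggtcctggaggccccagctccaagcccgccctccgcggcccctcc
Il6: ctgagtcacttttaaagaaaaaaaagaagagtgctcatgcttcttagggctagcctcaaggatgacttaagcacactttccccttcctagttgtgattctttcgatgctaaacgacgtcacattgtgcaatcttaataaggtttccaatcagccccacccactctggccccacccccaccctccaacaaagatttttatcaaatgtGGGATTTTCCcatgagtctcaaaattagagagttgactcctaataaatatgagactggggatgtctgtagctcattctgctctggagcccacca
Il1r1: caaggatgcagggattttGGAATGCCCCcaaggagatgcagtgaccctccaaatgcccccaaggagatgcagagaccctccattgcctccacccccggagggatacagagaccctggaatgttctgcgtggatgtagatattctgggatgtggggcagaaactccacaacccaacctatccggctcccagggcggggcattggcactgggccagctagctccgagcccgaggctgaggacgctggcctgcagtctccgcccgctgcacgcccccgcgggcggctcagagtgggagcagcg
The motif began 154 bases before the start in Socs3, 44 bases before it in Il6 and 232 bases before it in Il1r1. Searched on both strands, the STAT motif, which reads the same on either strand, was in 8.30% of the 32851 mouse windows and in 2 of the members' windows, those of Socs3 and Tnfrsf1a. The NF-κB motif was in 8.46% of windows and in 2 of the members' windows, the Il6 and Il1r1 windows shown. AP-1 motifs (TGACTCA or TGAGTCA) were in 5.20% of windows and in 2 of the members' windows, of Il6 and Il1rn. The letters TATAAA were in 13.6% of windows and in 3 of the members' windows, and in Il1b and Tnf they began 31 and 29 bases before the start. The window of the first Il1r1 start (chr1:40224830-40225129) held none of the 4 motifs. These matches describe the letters only. The libraries read transcripts near the 3′ end, so they do not tell which start was used.

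The libraries held 85522287 unique molecular identifiers (UMIs, each a counted molecule) over 100171 barcodes in WT and 87575064 over 90147 in N-LKO. Filtering left 18434 WT and 19851 N-LKO cells with medians of 1401 and 1454 UMIs. They fell into 23 clusters, which marker genes placed in 14 named classes, written as X-like since the names were rebuilt here. Mixed clusters, whose markers pointed to more than 1 type, and 2 unnamed clusters were left out of the classes. The libraries shared 2499 barcodes, of which 122 were kept cells (0.662% of WT and 0.615% of N-LKO cells). Levels are given as CPM, the UMIs of a gene per 1000000 UMIs of all genes. Nus1 in hepatocyte-like cells was at 74.4 CPM in WT and 39.7 in the other library. Whether the counted 3′ end lies in the deleted part was not given in the sources used here, so this level is a limited check of the labels.

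UMIs of a class were summed per library and divided by the UMIs of all genes in that class. Intervals are exact 95% Poisson intervals for a CPM, conditional binomial intervals for a log2 ratio of N-LKO over WT and Clopper-Pearson intervals for a share. They cover counting error only, and "beyond counting error" means that such an interval left out 0. Free RNA in droplets also gives UMIs to cells that do not express a gene. Its share was estimated per class from genes that the class should lack, and came to 24.6% to 65.3% in every class and library other than WT hepatocyte-like cells, where it was 87.8% against 37.0% in N-LKO. The hepatocyte markers, a measure of that RNA in other cells, summed to 16327 CPM in WT and 7091 in N-LKO Kupffer-like cells, with all 7 markers above 0. The median mitochondrial share also differed, from 10.8% in WT to 15.3% in N-LKO Kupffer-like cells and from 21.0% to 15.9% in hepatocyte-like cells. In the alternatives with free RNA subtracted, it was taken from the gene and from the class total, and CPM was computed over what remained. In hepatocyte-like cells this rescaled the 2 libraries by unlike shares. Free RNA holds RNA from hepatocytes, so a hepatocyte-like level near the estimate does not show that those cells lacked the transcript. The part of free RNA or of mitochondrial share in the results was not tested.

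**Figure D1:**
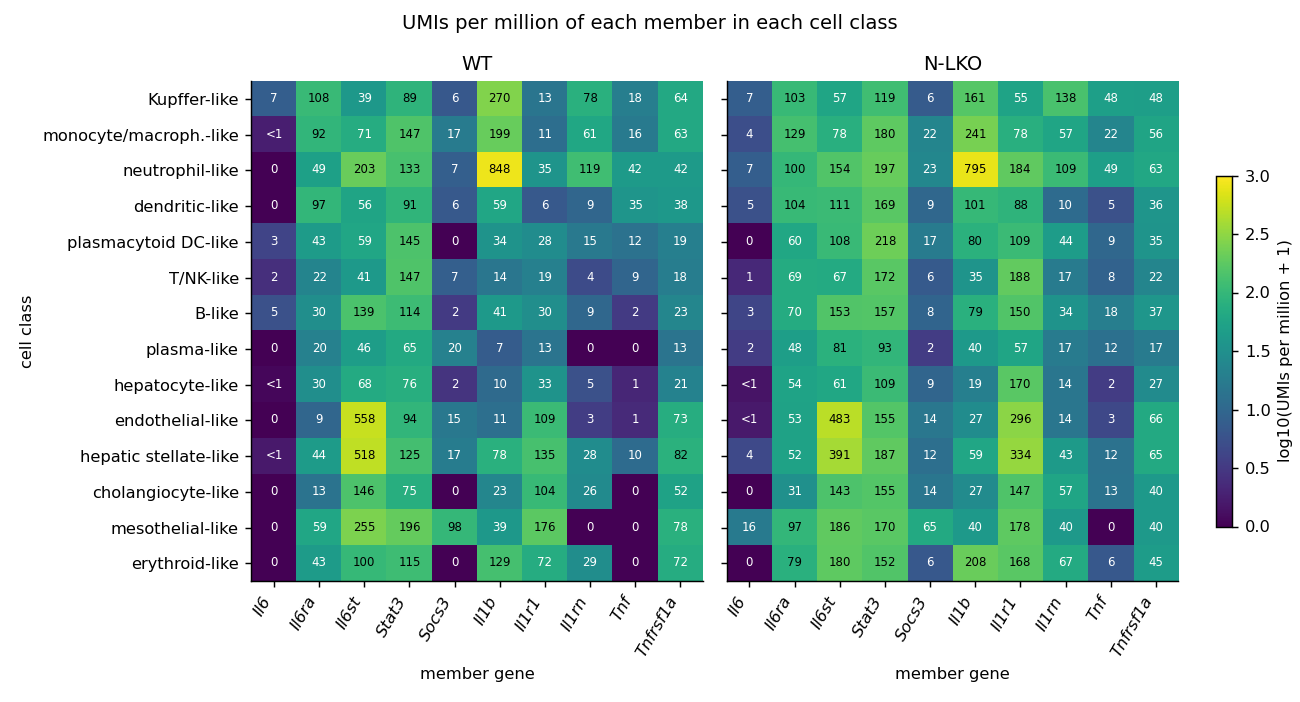
Level of the 10 members (columns) in the 14 named cell classes (rows) in WT (left) and N-LKO (right). Each number is the CPM in the class, and the color is log10 of that value plus 1. Il1b was highest in neutrophil-like cells, Il6st in endothelial-like and stellate-like cells, and the Il1r1 column is brighter in N-LKO in most rows.

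Across all barcodes, which no choice of cells or classes touches, every member was at a higher level in N-LKO. Il1r1 differed most, at 31.0 CPM in WT and 159.9 in N-LKO. The levels were 11.5 and 40.1 CPM for the IL-1 antagonist Il1rn, 3.52 and 12.6 for Tnf and 37.5 and 91.0 for Il1b. For the IL-6 arm the levels were 0.795 and 1.66 CPM for Il6, 26.6 and 63.9 for Il6ra, 103 and 137 for Il6st, 72.0 and 118 for Stat3, and 4.33 and 9.31 for Socs3. Tnfrsf1a had the smallest ratio, with 28.6 and 36.8 CPM (log2 ratio 0.36, 0.29 to 0.44). These totals also hold the difference in cell makeup. Kupffer-like cells were 19.6% of WT and 22.8% of N-LKO cells outside the hepatocyte-like and unnamed clusters, monocyte or macrophage-like cells 10.9% and 15.7%, and neutrophil-like cells 1.23% (1.00 to 1.49) and 4.34% (4.02 to 4.67). In such totals, more cells of a type and more RNA per cell cannot be told apart, so the rest of the account is by class.

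Il1b came mainly from 3 myeloid classes in both libraries, but in different proportions. In WT, Kupffer-like cells held 40.2% of the 1647 Il1b UMIs in kept cells, monocyte or macrophage-like cells 15.4% and neutrophil-like cells 7.35%. In N-LKO the shares of 3784 UMIs were 24.9%, 22.7% and 21.5%. The mixed cluster led by Cd5l and Mmp12 held 12.3% and 10.8%, and the many hepatocyte-like cells 9.84% and 2.27%. The 3 myeloid classes were thus near equal sources in N-LKO, while Kupffer-like cells led in WT. By level, neutrophil-like cells came first in both libraries, at 848 CPM (703 to 1013; 104 cells) in WT and 795 (742 to 852; 680 cells) in N-LKO, with a log2 ratio of −0.09 (−0.37 to 0.20). The level within neutrophil-like cells thus did not differ beyond counting error. Among the other classes with over 200 cells in each library, next in order came Kupffer-like before monocyte or macrophage-like cells in WT and the opposite in N-LKO, and in both libraries the intervals of these classes did not overlap.

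**Figure D2:**
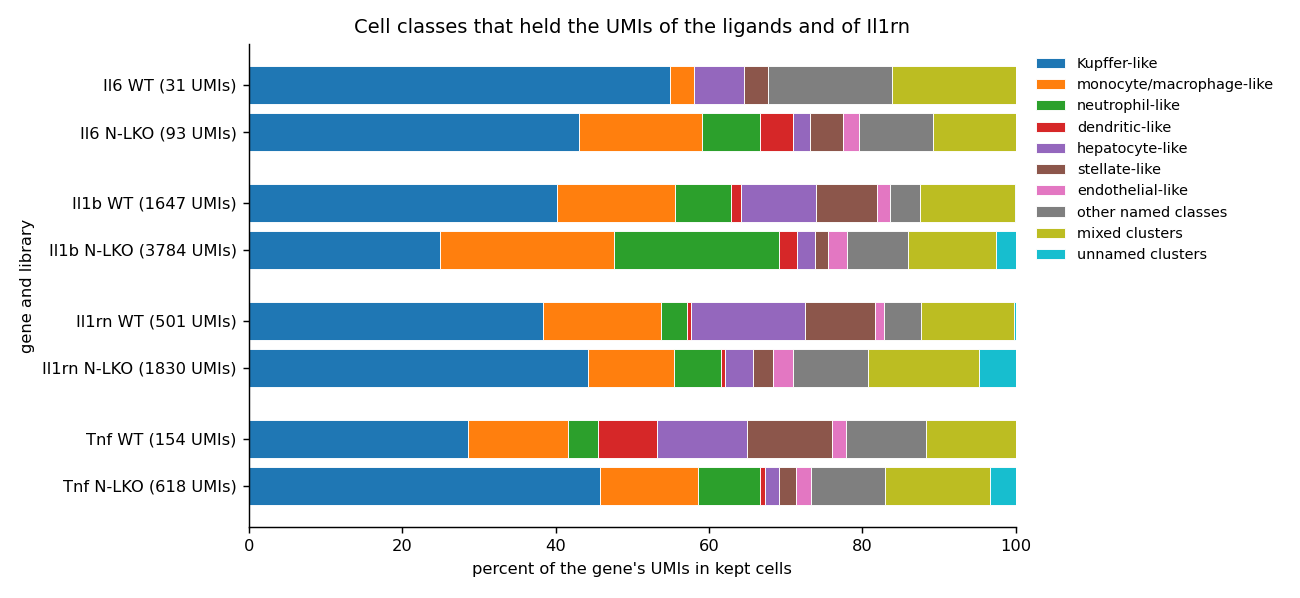
Share of each gene's UMIs in kept cells (x axis, percent) that each cell class held, for Il6, Il1b, Il1rn and Tnf in WT and N-LKO (rows, with the number of UMIs). The Kupffer-like part of Il1b was 40.2% in WT and 24.9% in N-LKO, while that of Tnf was 28.6% and 45.8%.

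Kupffer-like cells showed a lower Il1b level in N-LKO beside higher levels of its antagonist and of Tnf. Il1b was at 270.4 CPM (250.2 to 292; 662 UMIs in 1656 cells) in WT and 161 CPM (151 to 172; 944 UMIs in 3581 cells) in N-LKO (log2 ratio −0.75, −0.89 to −0.60). Il1rn was at 78.4 CPM (67.7 to 90.4) in WT and 138 (129 to 148) in N-LKO (log2 ratio 0.82, 0.59 to 1.05). Tnf was at 18.0 CPM (13.1 to 24.1) and 48.3 CPM (42.8 to 54.2) (log2 ratio 1.43, 0.96 to 1.92). All 3 levels were far above the free RNA estimates for the class, which were at most 12.9 CPM for Il1b, 7.45 for Il1rn and 1.36 for Tnf. Of the 10 members, Il1r1 and Tnf were at least 2-fold higher in N-LKO Kupffer-like cells and none was 2-fold lower. Among all 12068 genes with at least 20 UMIs in the class, 6.46% were 2-fold higher and 5.87% 2-fold lower. Il1r1 was at 13.5 CPM in WT and 54.6 in N-LKO, where free RNA would give 6.63 and 38.1.

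The share of cells with a UMI gave the same directions. With every cell thinned to 1000 UMIs, 20.7% (18.7 to 22.7) of WT and 11.5% (10.5 to 12.6) of N-LKO Kupffer-like cells had an Il1b UMI. The corresponding shares were 5.92% and 10.4% for Il1rn and 1.63% and 3.85% for Tnf. Without thinning, at medians of 1385 and 1495 UMIs per cell, the Il1b shares were 27.0% and 17.4%, the Il1rn shares 8.39% and 14.7% and the Tnf shares 2.48% and 5.86%. Endothelial-like cells, at medians of 1173 and 1263 UMIs, served as cells that should lack these genes. There, thinned shares were 0.959% and 2.57% for Il1b, 0.267% and 1.43% for Il1rn and 0.160% and 0.421% for Tnf.

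The Kupffer-like class held different cells in the 2 libraries, and some ratios were different within its clusters. At a finer clustering (resolution 0.8), a cluster led by Mmp12 and Gpnmb, genes of lipid-laden macrophages, had 337 WT and 3340 N-LKO cells. A cluster led by Cd163 and Clec4f, genes of resident Kupffer cells, had 1194 WT and 66 N-LKO cells. Clec4f, Cd5l and Vsig4 were among the leading genes of both clusters, and all 6 Kupffer markers were raised in each. Within the Mmp12-led cluster, Il1b was at 184 CPM in WT and 170.3 in N-LKO (log2 ratio −0.11, −0.41 to 0.20). For Il1rn the direction was the opposite of that of the class, at 225 CPM (187 to 268) in WT and 145 (135 to 156) in N-LKO (log2 ratio −0.63, −0.91 to −0.35). Tnf kept its direction, at 28.8 and 51.4 CPM (log2 ratio 0.83, 0.11 to 1.66). In the Cd163-led cluster, Il1b was at 321 CPM in WT and 172 in N-LKO (log2 ratio −0.90, −1.72 to −0.19). In that cluster Il1rn (39.0 and 75.4 CPM) and Tnf (13.2 and 21.5 CPM) did not differ beyond counting error with only 66 N-LKO cells. In WT alone, Il1rn was thus higher in the Mmp12-led than in the Cd163-led cells, and Il1b was lower.

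**Figure D3:**
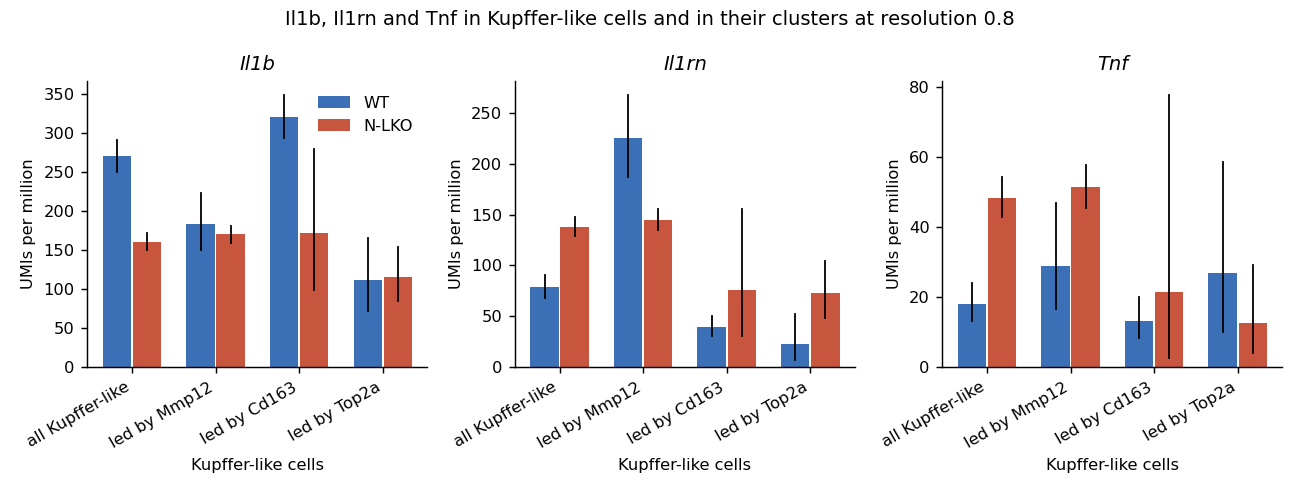
Il1b, Il1rn and Tnf in CPM (y axes, starting at 0) in all Kupffer-like cells and in their 3 clusters at resolution 0.8, for WT (blue) and N-LKO (red). Bars are levels and lines are exact 95% Poisson intervals. The Mmp12-led cluster held 337 WT and 3340 N-LKO cells, and its Il1rn level was higher in WT, opposite to the class as a whole.

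Some ratios also differed among the deeper cells. Among the 159 WT and 723 N-LKO Kupffer-like cells with at least 2000 UMIs, the log2 ratio was −0.25 for Il1b and −0.13 for Il1rn. Tnf stayed above 0 under all 15 alternatives, between 0.70 and 1.53. The cluster of cycling Kupffer-like cells, led by Top2a, held 121 WT and 178 N-LKO cells, and Il1b there was at 112 and 115 CPM. Tnf in these cells ran the other way, at 26.9 and 12.5 CPM from 6 and 5 UMIs (log2 ratio −1.10, −3.15 to 0.87), within counting error. Il1rn was higher in N-LKO, at 22.4 and 72.6 CPM from 5 and 29 UMIs (log2 ratio 1.70, 0.31 to 3.42).

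Cells that held an Il1b UMI also held a Tnf UMI more often in N-LKO than in WT Kupffer-like cells. In N-LKO, 96 of 623 Il1b-positive cells had Tnf (15.4%, 12.7 to 18.5), against 3.85% (3.19 to 4.61) of the other Kupffer-like cells. In WT, 14 of 447 had Tnf (3.13%, 1.72 to 5.20), against 2.23% of the others. The Il1rn share was likewise 33.8% (27.4 to 40.6) in the 210 Tnf-positive N-LKO cells and 13.5% in the rest. In WT it was 19.5% (8.82 to 34.9) of 41 cells and 8.11% of the rest. These are shares of cells within 1 library each, and a cell with more UMIs is more likely to show any 2 genes.

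In monocyte or macrophage-like cells the ligands differed less. Il1b was at 199 CPM (175 to 225) in WT and 241 (225 to 258) in N-LKO (log2 ratio 0.27, 0.07 to 0.48). Among cells with at most 10% mitochondrial UMIs (387 WT and 245 N-LKO), it was −0.39. Il1rn was at 60.6 and 57.5 CPM (log2 ratio −0.08, −0.46 to 0.32), and Tnf at 15.7 and 22.2 CPM (log2 ratio 0.49, −0.23 to 1.28). Il1r1 alone of the 9 members tested was at least 2-fold higher in this class, and none was 2-fold lower. Of 11118 genes, 7.0% were 2-fold higher and 6.65% lower. Il1r1 was at 11.0 CPM in WT and 77.7 in N-LKO, where free RNA would give 8.94 and 49.6.

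In neutrophil-like cells, a class led by S100a9 and S100a8, Il1rn was at 119 CPM in WT and 109 in N-LKO and Tnf at 42.0 and 48.9 CPM, both within counting error. Dendritic-like cells were the exception for Tnf, with 12 WT UMIs (35.3 CPM, 18.3 to 61.7) and 4 N-LKO UMIs (4.59 CPM, 1.25 to 11.7) (log2 ratio −2.95, −5.03 to −1.22). Il1b in dendritic-like cells was at 58.9 and 101 CPM. That class was led by Xcr1, a gene of cross-presenting dendritic cells, but also by Prtn3 and Elane, genes of granulocyte precursors. Of the 6 members tested in this class, Il1r1 was 2-fold higher and none was lower, against 10.2% higher and 5.92% lower of 7359 genes. Tnf, with its 12 and 4 UMIs, was below the minimum of 20 for that count. Il1r1 was at 5.89 CPM in WT and 88.3 in N-LKO, where free RNA would give 7.24 and 37.4.

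In hepatocyte-like and endothelial-like cells Il1b was near the level that free RNA alone would give, or below it. Hepatocyte-like cells had 10.0 CPM in WT and 18.6 in N-LKO, against free RNA estimates of 15.4 and 15.04 CPM. Endothelial-like cells had 11.4 and 27.4 CPM, against 8.10 and 18.4 CPM. B-like cells stood above the estimate, at 40.9 and 78.8 CPM from 18 and 96 UMIs, against 8.67 and 17.8 CPM. Plasmacytoid dendritic-like cells did so too, at 33.9 and 80.4 CPM from 11 and 62 UMIs, against 7.58 and 16.4 CPM. Cholangiocyte-like cells had 22.7 and 27.1 CPM from 7 and 25 UMIs, against 7.54 and 16.5 CPM. Stellate-like cells were also above it, at 78.4 CPM (65.6 to 93.1) in WT and 58.7 (45.4 to 74.6) in N-LKO, against 4.32 and 14.6 CPM. Erythroid-like droplets, led by globin genes and by the Kupffer gene Vsig4, had 129 and 208 CPM from 9 and 37 UMIs.

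Il6 itself was scarce. Kept cells held 31 Il6 UMIs in WT and 93 in N-LKO, of which Kupffer-like cells held 17 (54.8%, 36.0 to 72.7) and 40 (43.0%, 32.8 to 53.7). In that class the level was 6.94 CPM (4.05 to 11.1) in WT and 6.82 (4.87 to 9.29) in N-LKO (log2 ratio −0.03, −0.88 to 0.89). The interval leaves room for a change of nearly 2-fold either way. Monocyte or macrophage-like cells had 1 WT and 15 N-LKO UMIs, and the log2 ratio of 2.42 (−0.28 to 7.81) did not differ from 0 beyond counting error. Neutrophil-like cells had 0 and 7 UMIs. With the limit for a count of 0 set at 3 counts, as distinct from the Clopper-Pearson intervals, 0 among 104 cells allows a share of cells with a UMI of up to 2.88%, so absence in WT is not shown. Endothelial-like cells, a further possible source of IL-6, had 0 and 2 UMIs, and hepatocyte-like cells 2 and 2, at or under the 3 UMIs taken as the floor.

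The IL-6 receptor chains were found in different cells. Il6ra was highest in Kupffer-like, monocyte or macrophage-like and dendritic-like cells, at 92.1 to 108 CPM in WT and 103 to 129 in N-LKO, and the 3 intervals overlapped in WT. Il6st was highest in endothelial-like cells, at 558 CPM (528 to 589) in WT and 483 (460 to 507) in N-LKO, and next in stellate-like cells, at 518 (485 to 554) and 391 (355 to 429). The intervals of these 2 classes overlapped in WT and not in N-LKO. In WT Kupffer-like cells Il6st was at 38.8 CPM, where free RNA would give 13.8 CPM.

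Between the libraries, Il6ra in Kupffer-like cells was at 108 CPM (95.6 to 122) and 103 (94.6 to 111) (log2 ratio −0.08, −0.29 to 0.14). In monocyte or macrophage-like cells it was at 92.1 and 129 CPM (log2 ratio 0.49, 0.19 to 0.79). Hepatocyte-like cells, the classical target, had 29.5 CPM (27.0 to 32.3) in WT and 53.5 (47.1 to 60.6) in N-LKO (log2 ratio 0.86, 0.63 to 1.08). With free RNA subtracted from the gene and from the class total, the hepatocyte ratio turned to −1.23. The shares removed from the total were 87.8% in WT and 37.0% in N-LKO. The same gene was higher in N-LKO in endothelial-like cells (8.84 and 53.0 CPM, log2 ratio 2.58, 1.93 to 3.31) and in T or NK-like cells (21.7 and 69.2 CPM, log2 ratio 1.67, 1.07 to 2.32). In endothelial-like cells the free RNA estimates were 6.63 and 19.96 CPM, so the WT level was close to that estimate. The unnamed N-LKO cluster described with Il1r1 had Il6ra at 133.6 CPM, near the 129 of monocyte or macrophage-like cells, the highest named class in N-LKO, and its leading genes put its share of N-LKO UMIs at 23.9% in endothelial-like and 27.5% in T or NK-like cells. With that RNA subtracted, the Il6ra ratios were 1.65 and 1.04.

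Il6st was lower in N-LKO in the classes where its level was highest and higher in some where it was low, but the endothelial, stellate and Kupffer ratios each turned under an alternative. The log2 ratio was −0.21 (−0.31 to −0.10) in endothelial-like cells and −0.41 (−0.58 to −0.24) in stellate-like cells. The stellate ratio was 0.11 at a mitochondrial limit of 10% with new clusters (445 WT and 64 N-LKO cells). It was 0.56 (0.23 to 0.90) in Kupffer-like cells, where the N-LKO level was 57.1 CPM. This Kupffer ratio turned to −0.24 among cells with at least 2000 UMIs and to −0.0096 with the mixed clusters assigned, and within the Mmp12-led cluster it was 0.06 (−0.48 to 0.66). T or NK-like cells had 41.1 and 67.4 CPM (log2 ratio 0.71, 0.23 to 1.21), where free RNA would give 22.2 and 45.3. Hepatocyte-like cells had 67.6 CPM (63.6 to 71.7) and 61.1 (54.2 to 68.6) (log2 ratio −0.15, −0.34 to 0.04), and this was 1.02 among the 428 WT and 218 N-LKO cells with at most 10% mitochondrial UMIs and −2.38 with free RNA subtracted. The endothelial ratio was 0.13 after subtraction of the RNA of the unnamed N-LKO cluster described with Il1r1. As with Kupffer-like cells, different endothelial cells made up the class. At resolution 0.8, a cluster led by Pcdh17 and Lyve1 held 152 WT and 2232 N-LKO cells and a cluster led by Ehd3 and Cyp26b1 held 1676 and 37. Within the Pcdh17-led cluster Il6st was at 499 CPM in WT and 488 in N-LKO (log2 ratio −0.03, −0.31 to 0.26).

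Stat3 was a broadly expressed gene and was higher in N-LKO in most classes. It was at 75.6 CPM (71.4 to 79.9) and 109 (99.9 to 119) in hepatocyte-like cells (log2 ratio 0.53, 0.38 to 0.68). Endothelial-like cells had 94.3 and 155 CPM (0.72, 0.49 to 0.95), stellate-like cells 125 and 187 (0.58, 0.29 to 0.86), Kupffer-like cells 89.1 and 119 (0.41, 0.19 to 0.64) and monocyte or macrophage-like cells 147 and 180.3 (0.29, 0.06 to 0.54). Cholangiocyte-like cells had the widest ratio, 1.05 (0.41 to 1.76), from 23 and 143 UMIs. Within the Pcdh17-led endothelial cluster the ratio was 0.18 (−0.35 to 0.77). Of the 9 classes with at least 200 cells in each library, none had a lower Stat3 level in N-LKO. In hepatocyte-like cells the ratio was −1.07 with free RNA subtracted and 0.32 among cells with at most 10% mitochondrial UMIs. Stat3 RNA does not measure STAT3 phosphorylation, by which the factor is activated.

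Socs3, a target of STAT3, was low in hepatocyte-like cells, at 1.80 CPM (1.203 to 2.58; 29 UMIs in 9634 cells) in WT and 8.63 CPM (6.17 to 11.8; 40 UMIs in 2095 cells) in N-LKO. The log2 ratio was 2.26 (1.54 to 3.01). Free RNA would give 2.58 CPM in WT and 2.67 in N-LKO. The WT level was no higher than this estimate, of which hepatocyte RNA is a part, and the N-LKO level was above it. Subtraction of free RNA left no WT level to compare. The ratio was above 0 in all 11 alternatives that gave a value, from 0.41 among cells with at most 10% mitochondrial UMIs to 3.22 among cells with at least 2000 UMIs. Within the hepatocyte-like cluster led by A2ml1, the 90 WT cells had 0 Socs3 UMIs, with an upper limit of 18.5 CPM. The N-LKO cells of that cluster were at 8.73 CPM, so no difference is shown there. In the other classes Socs3 did not differ beyond counting error where a ratio could be formed between 2 levels above 0. It was at 16.5 and 22.2 CPM in monocyte or macrophage-like cells, 14.7 and 14.3 in endothelial-like cells, 17.4 and 11.6 in stellate-like cells and 5.72 and 6.31 in Kupffer-like cells. Its highest level in both libraries was in mesothelial-like cells, at 98.0 CPM from 5 UMIs and 64.7 CPM from 8.

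Il1r1 was higher in N-LKO in most classes. In WT it was highest in structural cells, at 176 CPM in mesothelial-like (9 UMIs), 135 in stellate-like, 109 in endothelial-like and 104 in cholangiocyte-like cells, whose intervals overlapped, and at 5.89 to 35.0 CPM in the myeloid and lymphoid classes. In N-LKO it was at 334 CPM (301 to 370) in stellate-like and 296 (278 to 315) in endothelial-like cells, and at 54.6 to 188 CPM in the myeloid and lymphoid classes. The log2 ratio was 1.31 (1.07 to 1.56) in stellate-like, 1.44 (1.24 to 1.65) in endothelial-like and 2.35 (2.19 to 2.51) in hepatocyte-like cells, where the levels were 33.4 and 170.2 CPM. Within the Pcdh17-led endothelial cluster it was 1.48 (0.90 to 2.13). In T or NK-like cells it was 3.27 (2.69 to 3.92), with 19.4 and 188 CPM, and in monocyte or macrophage-like cells 2.82 (2.05 to 3.71), with 11.0 and 77.7 CPM. Free RNA would give 10.7 and 64.4 CPM in T or NK-like and 8.94 and 49.6 in monocyte or macrophage-like cells. It would give 9.46 and 54.2 CPM in endothelial-like, 5.04 and 42.8 in stellate-like and 17.95 and 44.3 in hepatocyte-like cells. Cholangiocyte-like cells (104 and 147 CPM) and mesothelial-like cells (176 and 178 CPM) did not differ beyond counting error.

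An unnamed cluster held the largest part of the Il1r1 RNA in N-LKO. It had 2076 N-LKO cells and 1 WT cell, was led by Col4a3 and Tmem45b, and matched no marker list. Its Il1r1 level was 551 CPM (528 to 574), above every named class, and it held 33.9% of the Il1r1 UMIs of kept N-LKO cells with 10.5% of those cells. Its level of the nuclear RNA Malat1 was 19849 CPM. A WT cluster of 332 cells, led by Sult2a8 and Gm12718 with Malat1 at 35479 CPM, had Il1r1 at 141 CPM (114 to 172). By Pearson's r of log2 levels over genes, which are not independent replicates, the N-LKO cluster lay as near to endothelial-like (0.81) and T or NK-like (0.81) as to hepatocyte-like cells (0.80), while the WT cluster lay nearest to hepatocyte-like cells (0.86, next 0.57). The N-LKO cluster's leading genes put its share of UMIs at 27.5% in T or NK-like, 23.9% in endothelial-like and 8.25% in hepatocyte-like cells. Such a share takes all UMIs of these genes as the cluster's. In WT and N-LKO they summed to 56.7 and 616 CPM in T or NK-like and 68.2 and 535 in endothelial-like cells. In hepatocyte-like cells they were at 179 and 184 CPM, and in the WT cluster of 332 cells at 948. The hepatocyte-like share is thus not shown to come from the cluster. The part of this shared RNA in the r values was not tested, so they do not place the cluster. If both clusters were counted as hepatocyte-like, the hepatocyte log2 ratio of Il1r1 would be 3.21 in place of 2.35.

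**Figure D4:**
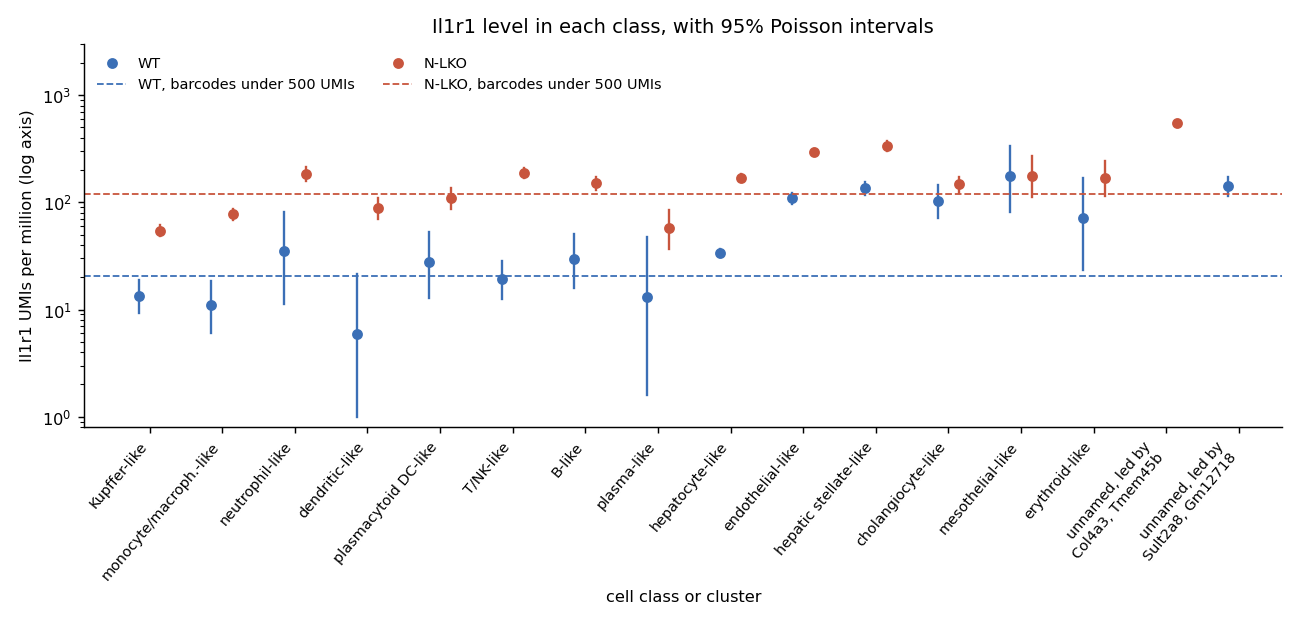
Il1r1 level in CPM (y axis, log scale) in each cell class or cluster with at least 30 cells, for WT (blue) and N-LKO (red), with exact 95% Poisson intervals. Dashed lines are the levels in barcodes below 500 UMIs, 20.5 in WT and 119.7 in N-LKO. The unnamed cluster led by Col4a3 and Tmem45b stood highest, at 551.

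The leading genes of that cluster were also counted in other cells. Il1r1 in barcodes under 500 UMIs, which are below the minimum for a cell, was at 20.5 CPM (17.5 to 23.8) in WT and 119.7 (111 to 129) in N-LKO. The N-LKO level in Kupffer-like, monocyte or macrophage-like, dendritic-like, plasmacytoid dendritic-like and plasma-like cells lay below that of these barcodes. For every 100 UMIs of the cluster's 10 leading genes, the cluster itself held 24.6 Il1r1 UMIs (23.5 to 25.8). The same ratio was 30.5 (26.8 to 34.7) in N-LKO T or NK-like, 33.1 (27.8 to 39.2) in B-like and 32.1 (26.2 to 39.0) in cholangiocyte-like cells. These intervals lay above that of the cluster. In plasma-like cells it was 27.9 (17.0 to 44.3), which overlapped the cluster. The ratio was further above that of the cluster in Kupffer-like (44.1), plasmacytoid dendritic-like (45.9), neutrophil-like (52.7) and endothelial-like cells (55.4, 51.3 to 59.8). The same held for monocyte or macrophage-like (57.7), stellate-like (59.4), dendritic-like (73.3, 53.9 to 99.3) and hepatocyte-like cells (92.3, 83.7 to 102). In N-LKO barcodes under 500 UMIs it was 53.9 (49.2 to 59.0). Of the classes named, hepatocyte-like cells alone had an interval above that of these barcodes. With the cluster's RNA subtracted at the share its leading genes gave (23.9% in endothelial-like cells), the endothelial log2 ratio was 0.99 in place of 1.44. In hepatocyte-like cells the lowest value under any alternative was 0.66, with free RNA subtracted.

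By cells, thinned to 1000 UMIs, an Il1r1 UMI was found in 3.39% of hepatocyte-like cells of WT and 14.8% of those of N-LKO. In endothelial-like cells the shares were 10.1% and 21.6%. Unthinned, at medians of 1509 and 1962 UMIs, the hepatocyte shares were 5.41% and 26.9%. T or NK-like cells, taken as cells of low Il1r1, had 1.77% and 14.7% when thinned, with medians of 1165 and 1231 UMIs. The thinned shares of hepatocyte-like and T or NK-like cells in N-LKO were thus close, with overlapping intervals.

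Il1r1 is the longest of the 10 genes, with 92.2 kb from 40225080 to 40317257 on chromosome 1 (GRCm38, GENCODE M21), and longer genes as a group were higher in several N-LKO classes. With the genes of a class split by span into 5 groups of equal size, the longest group in T or NK-like cells had a median log2 ratio of 0.60, and 30.1% of them were 2-fold higher. In endothelial-like cells these values were 0.46 and 24.2%, and in Kupffer-like cells 0.18 and 12.0%. In hepatocyte-like cells the longest group had a median of −0.00, with 5.61% of its genes 2-fold higher. Whether the span of Il1r1 bears on its ratio was not tested. In these 4 classes Il6ra, Il6st and Stat3 lay in the group next to the longest, and the 3 ligands and Socs3 in the shortest.

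Tnfrsf1a, the gene of a TNF receptor found on most cells, differed beyond counting error in 2 of the named classes, Kupffer-like and hepatocyte-like cells. It was at 63.7 CPM (54.1 to 74.6) in WT and 47.6 (42.2 to 53.5) in N-LKO Kupffer-like cells (log2 ratio −0.42, −0.71 to −0.13). At a mitochondrial limit of 10% with new clusters (767 WT and 766 N-LKO cells) this ratio turned to 0.075. Monocyte or macrophage-like (63.0 and 55.8 CPM), endothelial-like (72.8 and 66.2) and stellate-like cells (82.0 and 64.9) did not differ beyond counting error. Hepatocyte-like cells had 20.6 CPM (18.4 to 22.9) and 27.0 (22.5 to 32.1) (log2 ratio 0.39, 0.08 to 0.69). There, free RNA, of which hepatocyte RNA is a part, would give 19.8 CPM in WT, near the level counted. The ratio was 2.02 with free RNA subtracted. Within the hepatocyte-like cluster led by A2ml1 (90 WT and 1994 N-LKO cells) the levels ran the other way, at 45.1 and 27.1 CPM. They came from 9 and 121 UMIs and lay within counting error (log2 ratio −0.73, −1.71 to 0.43). Stellate-like cells had the highest level in WT of the classes with over 50 cells, but its interval overlapped that of endothelial-like cells.

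**Figure D5:**
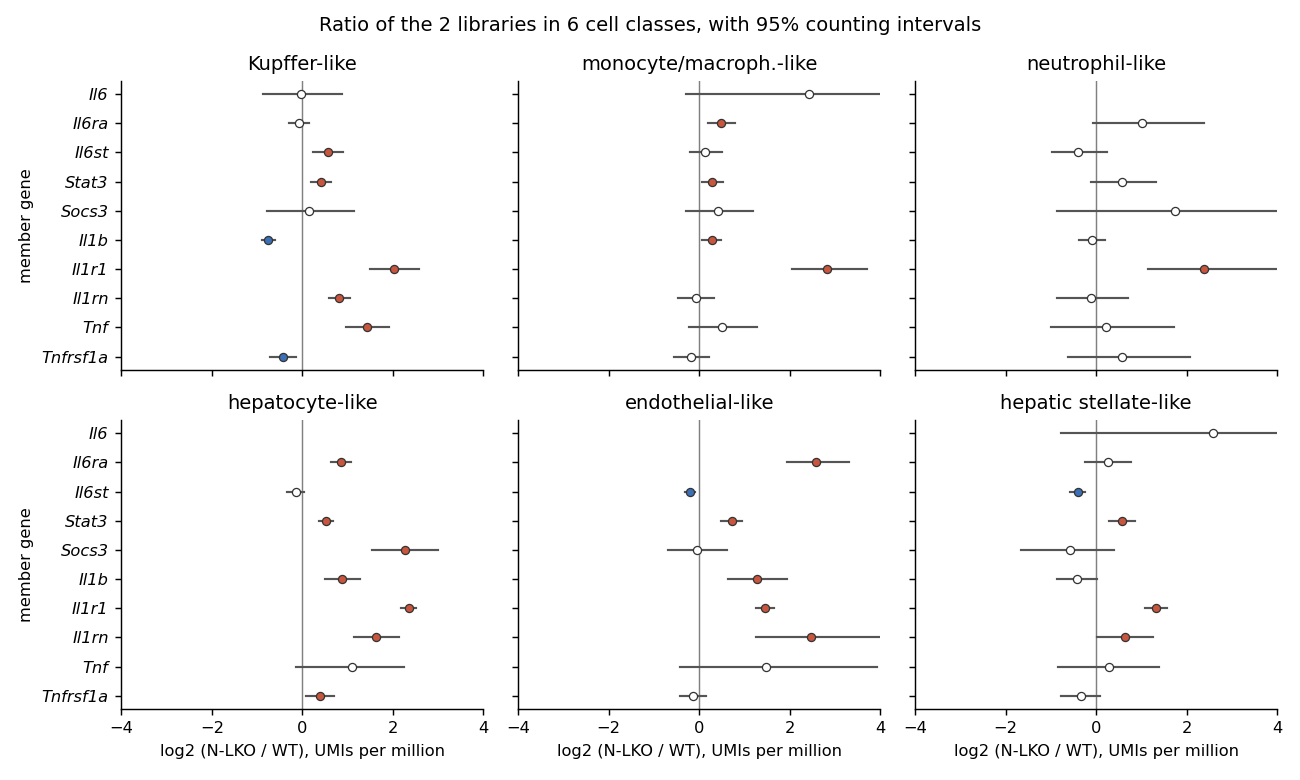
Log2 ratio of N-LKO over WT (x axis) for the 10 members (rows) in 6 cell classes, with 95% conditional binomial intervals that are drawn to −4 and 4 at most. Red points have an interval above 0, blue points below 0 and white points across 0, and genes without a ratio (at or under 3 UMIs in both libraries, or 0 in 1 of them) are left out. Il1r1 is red in all 6 classes, at 1.31 to 2.82, while Il1b is blue in Kupffer-like cells, red in 3 classes and white in 2.

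The members can be read against all genes of a class. In hepatocyte-like cells 4 of the 9 members tested, Il1r1, Socs3, Il1rn and Tnf, were at least 2-fold higher and none lower, where 7.0% of 13028 genes were higher and 5.09% lower. Il1rn there had 4.58 and 14.2 CPM, where free RNA would give 6.13 and 8.67, and Tnf had 18 and 11 UMIs with an interval that crossed 0. In endothelial-like cells 4 of 8 were higher (12.1% of 11841 genes), namely Il1r1, Il6ra, Il1b and Il1rn, and none was lower (7.05%). Endothelial-like Il1rn was at 2.53 CPM in WT and 14.0 (10.3 to 18.5) in N-LKO, where free RNA would give 3.23 and 10.6. The same count was 4 of 8 in T or NK-like cells (12.9% of 10196 genes higher, 8.06% lower), 4 of 8 in B-like cells (11.8% and 8.0% of 8704) and 3 of 7 in plasmacytoid dendritic-like cells (9.23% and 8.31% of 7100), with no member lower. In B-like cells these were Il6ra, Il1r1, Il1rn and Tnf, the last from 1 and 22 UMIs. In stellate-like cells only Il1r1 of 9 was 2-fold higher and none lower (7.33% and 8.0% of 10657). In N-LKO T or NK-like cells Il1b was at 34.9 CPM and Il1rn at 16.9, where free RNA would give 21.9 and 12.6. Within the Pcdh17-led endothelial cluster Il1b was at 27.2 and 27.9 CPM, from 6 and 90 UMIs.

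A further 92 genes of the same pathways were counted as a group: ligands, receptors, transducers, inhibitors, processing enzymes and target genes. In hepatocyte-like cells 84 were tested, 20 were at least 2-fold higher and 0 lower, and the median log2 ratio was 0.23, against 0.07 over all genes. Of all 13028 genes tested there, 7.0% were higher and 5.09% lower. With free RNA subtracted, which removes most of the WT total here, 35 of the list were higher and 11 lower. The target genes of STAT3 and NF-κB made up 15 of the 20, from 28 tested, with a median of 1.10. They include Saa1 and Lcn2, which the study had reported as raised in N-LKO hepatocytes. Since the list was chosen with earlier results of these data known, the count is a description and not independent support. Of the 23 transducers, such as Jak1, Myd88 and Rela, 0 were 2-fold higher or lower, and their median was 0.03. Lcn2, which encodes an iron-carrier-binding acute phase protein, was at 15.4 and 446 CPM in WT and N-LKO (log2 ratio 4.85, 4.66 to 5.05). The serum amyloid genes Saa1 (80.9 and 755 CPM) and Saa2 (47.0 and 487 CPM), which are close paralogs whose UMIs may be split between them, had log2 ratios of 3.22 and 3.37, and Fgl1 had 2.35. Free RNA would give 72.3 CPM for Saa1 and 42.8 for Saa2 in WT, near the levels counted. Hepatocyte RNA is part of that estimate, so absence in WT is not shown. Il1r2, the IL-1 decoy receptor, had 5 and 21 UMIs and lay near the free RNA estimate.

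Genes that respond to cell isolation were also higher in the same class. Of 13 such genes, Fos, Jun and heat shock genes among them, 6 were 2-fold higher in hepatocyte-like cells of N-LKO (median log2 ratio 0.88), and in stellate-like cells their median was −0.45. Socs3 and several of the target genes can also respond to isolation, and the part of this in the results was not tested. WT and N-LKO hepatocyte-like cells came from different clusters, since 3 clusters led by Mup7 or Mup9 held nearly all WT cells and a cluster led by A2ml1 held 1994 of the 2095 N-LKO cells. Marker levels of other types differed too. In hepatocyte-like cells the 8 cholangiocyte markers summed to 117 CPM in WT and 611 in N-LKO, the 5 proliferation markers to 16.2 and 67.5, and the 7 stellate markers to 122 and 41.9, with none at 0. Their part in the hepatocyte ratios was not tested.

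In Kupffer-like cells 84 of the 92 genes were tested, 15 were 2-fold higher and 2 lower, with a median log2 ratio of 0.09 against −0.04 over all genes. Of all 12068 genes tested there, 6.46% were higher and 5.87% lower. The counts for the list were 12 higher and 7 lower with free RNA subtracted. Above the free RNA estimate were Il1r2 (1 and 60 UMIs, log2 ratio 4.65, 2.11 to 9.97), the neutrophil attractant Cxcl1 (5.31 and 26.1 CPM, 2.30) and the gp130 ligand Clcf1 (1.63 and 7.67 CPM, 2.23). Ccl2, which attracts monocytes, was lower, at 36.4 and 14.2 CPM (−1.36, −1.81 to −0.91). The liver-made genes Lcn2, Fgl1 and Hamp had log2 ratios of 3.76, 2.59 and −1.51 in this class, but each lay near its free RNA estimate. In monocyte or macrophage-like cells 17 of 85 were higher and 2 lower, where 7.0% of all genes were higher and 6.65% lower. With free RNA subtracted the balance turned, to 8 higher and 10 lower. The neutrophil attractant Cxcl2 was at 22.8 and 101 CPM (2.15, 1.60 to 2.75) while Cxcl10 was at 83.5 and 27.5 CPM (−1.60, −2.01 to −1.19).

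Endothelial-like cells had 14 of 83 genes higher and 3 lower (median 0.28 against 0.10 over all genes), and 10 of the 14 were target genes. Of the target genes with the widest ratios, Lcn2, Fgl1 and Saa1 lay near free RNA in N-LKO. They were at 93.5, 94.7 and 131 CPM, where free RNA would give 88.1, 77.4 and 159. Crp, at 256 CPM against 90.6, was above its estimate. Of all genes there, 12.1% were higher and 7.05% lower, and with free RNA subtracted 13 of the list were higher and 8 lower. Among its lower genes was Socs1, a feedback inhibitor, at 10.1 and 3.79 CPM. Stellate-like cells had 12 of 77 higher and 5 lower (0.02 against −0.11), where 7.33% of all genes were higher and 8.0% lower. The higher genes with the widest ratios, Lcn2, Fgl1, Saa1, Saa2 and Hp, lay near their free RNA estimates in N-LKO. Hp, for one, was at 527 CPM against 534. The 5 lower genes were Nfkbie (17.4 and 3.56 CPM), Ccl2 (83.8 and 18.7), Cxcl10 (55.1 and 12.4), Zfp36 (256 and 104) and Traf5 (32.3 and 13.3). In the remaining classes the counts higher and lower were 19 and 3 of 78 in T or NK-like cells (12.9% and 8.06% of all genes), 11 and 4 of 71 in B-like cells (11.8% and 8.0%), 18 and 1 of 61 in dendritic-like cells (10.2% and 5.92%) and 12 and 1 of 57 in plasmacytoid dendritic-like cells (9.23% and 8.31%). With free RNA subtracted they were 17 and 7 in T or NK-like, 5 and 13 in B-like, 14 and 9 in dendritic-like and 6 and 6 in plasmacytoid dendritic-like cells. In these classes Lcn2, Fgl1, Saa1 and Hamp again lay near the free RNA estimate, and with free RNA subtracted the median of the list was −0.03 in T or NK-like and −0.11 in B-like cells, in place of 0.22 and 0.24.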

How the data were processed

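The deposited files are 1 raw 10x 3′ v3 matrix of UMI counts per library, which the authors made with Cell Ranger 7.1.0 and read into Seurat. The submitters' notes name mm9, and whether introns were counted is not given in the sources used here. The files hold no coordinates, so those printed are from GENCODE M21 and RefSeq on GRCm38. Groups were taken from the genotype labels, with 1 library each.

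From these counts, cells were kept with at least 1000 UMIs, 400 genes and at most 30% mitochondrial UMIs (20158 WT and 22214 N-LKO), and 1724 and 2363 likely doublets were removed by a score of simulated doublets above 0.25. Counts were clustered with scanpy 1.11.5 and leidenalg 0.10.2 (2000 variable genes without the members and pathway genes, 30 components, 20 neighbours, resolution 0.3) and named from 17 marker lists, with a minimum score of 0.3 that was set after the clusters were seen. CPM is a gene's UMIs per 1000000 UMIs of its class, and intervals were computed with scipy 1.17.1 under Python 3.11.15. With 1 library per group there is no test. The median depth was 1401 and 1454 UMIs per cell, and genes with at least 20 UMIs in a class of at least 200 cells per library were counted at a fold of 2. The free RNA profile was that of barcodes under 500 UMIs. The script was tested on simulated counts.

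All 10 members are named. Of the 92 further pathway genes, those past a fold of 2 in a class were candidates to be named by the size of their ratio, at most 5 in each direction. The genes most like a member were taken from the 3 of highest correlation, of which 1 is not reported here, and the Pcdh17-led endothelial cluster was singled out after its values were seen. The members and lists were chosen with earlier results of these data known. In all, 16 alternatives were tried, 6 of them added after the data were seen. Mixed and unnamed clusters were left out of the classes.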

Additional observations from a re-analysis of the deposited data

Results flagged for a closer look

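Some members had ratios in opposite directions in different classes, each beyond counting error, but several of these turned under an alternative. None of these differences between classes was tested, since each group had 1 library. Il6st had log2 ratios of N-LKO over WT of 0.56 in Kupffer-like, 0.99 in dendritic-like, 0.88 in plasmacytoid dendritic-like and 0.71 in T or NK-like cells, against −0.21 in endothelial-like and −0.41 in stellate-like cells. The Kupffer-like value turned to −0.24 among cells with at least 2000 UMIs, the stellate-like one to 0.11 at a mitochondrial limit of 10% and the endothelial-like one to 0.13 with RNA of the unnamed N-LKO cluster subtracted. In T or NK-like cells the Il6st levels were 41.1 and 67.4 CPM, where free RNA would give 22.2 and 45.3. Il1b had −0.75 in Kupffer-like cells, against 0.27 in monocyte or macrophage-like, 0.78 in dendritic-like, 0.95 in B-like, 0.89 in hepatocyte-like and 1.27 in endothelial-like cells. The Kupffer-like value was 0.078 at a minimum of 2000 UMIs with new clusters. There the only cluster named Kupffer-like held cycling cells, led by Hist1h1b and Top2a. Among cells with at most 10% mitochondrial UMIs the monocyte or macrophage-like value turned to −0.39 and the B-like one to −0.69. In hepatocyte-like and endothelial-like cells the Il1b levels were near the free RNA estimates. Tnfrsf1a had −0.42 in Kupffer-like and 0.39 in hepatocyte-like cells. The Kupffer-like value turned to 0.075 at a mitochondrial limit of 10%, and the WT hepatocyte-like level was at the free RNA estimate.

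Barcodes too small to be counted as cells carried Il1r1 as well. In barcodes under 500 UMIs it was at 119.7 CPM in N-LKO, against 20.5 CPM in WT.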

How the results depend on the processing

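No paired analysis was possible because each group had 1 library. Of 207 values of 16 member ratios under the alternatives, 168 stayed within counting error of the reported value, 32 moved further and 7 turned direction. Ratios whose reported interval held 0 were not counted as turned, though some changed sign. Hepatocyte-like Il6st was below 0 in 11 alternatives and above 0 in 2, and Kupffer-like Il6 below 0 in 7 and above 0 in 6. The ratio of Tnf in Kupffer-like and monocyte or macrophage-like cells, of Socs3, Il1r1 and Tnfrsf1a in hepatocyte-like cells and of Il1r1 in endothelial-like cells kept its direction in each alternative that gave a value. The hepatocyte-like cluster led by A2ml1, taken alone, was not among the alternatives. There the log2 ratio was −0.73 (−1.71 to 0.43) for Tnfrsf1a and 2.77 (1.54 to 4.39) for Il1r1, and Socs3 had 0 WT UMIs. Unless stated, the cause of a change was not tested.

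Values below are log2 ratios. With free RNA subtracted, hepatocyte-like Il6ra was −1.23, Il6st −2.38, Stat3 −1.07, Il1r1 0.66 and Tnfrsf1a 2.02. At a minimum of 2000 UMIs with new clusters (39 WT and 116 N-LKO Kupffer-like cells), Kupffer-like Il1b was 0.078 and Il1rn 2.11, and hepatocyte-like Socs3 3.18, and no monocyte, neutrophil, endothelial or stellate class was found. Those Kupffer-like cells were a cycling cluster led by Hist1h1b and Top2a. A cluster led by Mmp12 and Cd5l (426 WT and 1718 N-LKO cells) was called mixed and left out. Among cells of at least 2000 UMIs in their first class, Kupffer-like Il6st was −0.24, Il1b −0.25 and Il1rn −0.13, monocyte or macrophage-like Stat3 −0.15 and Il1b 0.85, hepatocyte-like Socs3 3.22 and endothelial-like Il1r1 2.09. At a mitochondrial limit of 10% with new clusters (328 WT and 13 N-LKO hepatocyte-like cells), Kupffer-like Tnfrsf1a was 0.075, T or NK-like Il1rn −0.81, hepatocyte-like Il6st 1.80 and Stat3 1.27, endothelial-like Il6st −0.50 and Il1r1 0.91, and stellate-like Il6st 0.11. At that limit in their first class, monocyte or macrophage-like Il1b was −0.39, neutrophil-like Il1b −0.53, B-like Il1b −0.69, hepatocyte-like Il6ra 1.28, Il6st 1.02, Stat3 0.32, Socs3 0.41, Il1r1 3.8 and Tnfrsf1a 0.82, endothelial-like Il6st −0.85 and Il1r1 2.60, and stellate-like Il1rn −0.20. With the unnamed Malat1-rich clusters as hepatocyte-like, Il6ra was 1.504, Stat3 0.75 and Il1r1 3.21. With RNA of the unnamed N-LKO cluster subtracted, endothelial-like Il6st was 0.13 and Il1r1 0.99. With mixed clusters assigned, Kupffer-like Il6st was −0.0096, and at resolution 0.8 monocyte or macrophage-like Il1rn was −0.71. In the Mmp12-led cluster alone, Il6 was 1.896, Il1b −0.11, Il1rn −0.63 and Tnf 0.83, and in the Cd163-led one Il1b was −0.90 and Tnf 0.70.

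For the 92 pathway genes, a minimum of 100 UMIs, which tests fewer genes, gave 9 higher in Kupffer-like, 1 in dendritic-like, 3 in plasmacytoid dendritic-like, 10 in T or NK-like and 7 in B-like cells, and 1 lower in B-like, 1 in endothelial-like and 3 in stellate-like cells. With no minimum, 4 were lower in Kupffer-like, 6 in monocyte or macrophage-like, 7 in dendritic-like, 5 in plasmacytoid dendritic-like, 5 in T or NK-like, 8 in B-like and 7 in endothelial-like cells, and 19 were higher in plasmacytoid dendritic-like cells. With free RNA subtracted, 8 were higher in monocyte or macrophage-like, 6 in plasmacytoid dendritic-like, 5 in B-like and 35 in hepatocyte-like cells. Lower then were 7 in Kupffer-like, 10 in monocyte or macrophage-like, 9 in dendritic-like, 6 in plasmacytoid dendritic-like, 7 in T or NK-like, 13 in B-like, 11 in hepatocyte-like and 8 in endothelial-like cells, and the median was −0.031 in T or NK-like and −0.11 in B-like cells. Depth limits Il6, Tnf and Socs3 most, with 31, 154 and 176 UMIs in kept WT cells.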

Other observations

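Genes with the pattern most like each member were found by Pearson's r of log2 levels over 26 class-by-library profiles and 11724 genes. The profiles share libraries and depth, so r is a description. Nearest to Il1b were Nlrp3 (r = 0.96), the inflammasome sensor, and C5ar1 (0.94). Nearest to Il1rn were Cd300lb (0.92), Mitf (0.90) and Cd14 (0.89), and to Tnf Evi2 (0.85), Apobr and Nfkbid (0.83 each). Il6ra came nearest to Slc8a1 (0.89), Il6st to Prkg1 (0.95), Stat3 to Ube2d2a (0.82) and Socs3 to Nupr1 (0.77). For the receptors Il1r1 and Tnfrsf1a the nearest were Rbfox2 and Marcks (0.90 each). Il6 had too few UMIs for such a ranking.

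The genes are spread over the genome, with Il1b (129364570 to 129371139) and Il1rn (24336853 to 24351494) both on chromosome 2. By span, Tnf (2.63 kb) and Il1r1 (92.2 kb) are the extremes.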
